A study of Mus musculus and other sequences with 2 samples.

Results

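The miR-130 family (miR-130a, miR-130b, miR-301a and miR-301b) and the miR-148 family (miR-148a, miR-148b and miR-152) are 2 groups of mature miRNAs, each with a common start by which they recognise their targets. They were measured with 7 of the 750 miRNA assays on the array, chosen as the mouse assays with these names and no # at the end, where # marks the minor arm of a hairpin. Of these, 6 carried the number itself, and the assay named miR-301 was counted as miR-301a because RefSeq lists mir-301a as a synonym of Mir301. All 7 were on card A.

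Culture media was collected from 1 microdroplet of BSA-free KSOM in which 25 CD1 mouse embryos, labelled as blastocysts, had been cultured for 17 h. The culture ran from 99 to 116 h post-hCG. The medium was labelled as holding 0.1% polyvinylacetate, while the paper spells out PVA as polyvinyl alcohol. The embryos came from superovulated dams, labelled as 3 wk old, and were grown from zygotes at reduced oxygen before selection. The blank media was a microdroplet of the same formula cultured for 17 h with no embryos. Each condition had 1 sample, so that no test between the media was possible, and every Ct below comes from 1 well. Ct is the cycle at which fluorescence crossed a threshold. It is a log2 scale that runs backwards, so that more template gives a lower Ct. A Ct below 35 was taken as detected. Fewer embryos releasing a miRNA and less of it released per embryo cannot be told apart in pooled media.

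A miRNA guides an Argonaute protein to messenger RNAs, mainly through its seed, the bases at positions 2 to 8, and the bound messenger is repressed. Members of the miR-148 family are known for repressing Dnmt1, the maintenance DNA methyltransferase, and members of the miR-130 family for repressing Pparg, a regulator of fat cell differentiation. miR-721, a mouse miRNA with the same seed as the miR-130 family, is known with that family for repressing Meox2 during the reprogramming of fibroblasts to pluripotent cells.

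The mature sequences are shown because the families differ by a shift of 1 base at the start, and because near-identical members gave different Ct values. They are RefSeq's, on the mouse assembly GRCm38.p6, and 6 of the 7 members were matched; miR-301b-3p was not. Each is written 5′ to 3′ with the seed in capitals. The array names do not state the arm, and the 3p arm was assumed for all members because the minor arms of miR-130b and miR-148a have assays of their own, marked #.
miR-130a-3p: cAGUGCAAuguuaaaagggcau
miR-130b-3p: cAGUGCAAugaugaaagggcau
miR-301a-3p: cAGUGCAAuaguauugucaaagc
miR-721: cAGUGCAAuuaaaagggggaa
miR-148a-3p: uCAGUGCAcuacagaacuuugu
miR-148b-3p: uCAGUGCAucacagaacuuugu
miR-152-3p: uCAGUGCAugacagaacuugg

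The run CAGUGCA was the longest shared by all 6 matched members. It began at base 1 in the miR-130 family and at base 2 in the miR-148 family, so that the seeds were AGUGCAA and CAGUGCA. Among RefSeq's mouse mature sequences, 7 had the first seed and 3 the second. With positions counted from 1 at the 5′ end, miR-130a-3p and miR-130b-3p differed by 2 substitutions, U11A and A13G, and miR-148a-3p and miR-148b-3p by 2, C9U and U10C. How far the assays separate such sequences is not given in the sources used here, so that the values of miR-130a and miR-130b, and of miR-148a and miR-148b, are uncertain to that extent.

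The members lie at 6 places in the genome. miR-130a-3p is encoded on the minus strand at chr2:84741116-84741137, outside the span of any other annotated gene. miR-130b-3p lies on the minus strand at chr16:17124071-17124092, and its gene and Mir301b are neighbours with 257 bases between them, both within the span of 2610318N02Rik. miR-301a-3p lies on the plus strand at chr11:87113054-87113076 within Ska2, a gene of the kinetochore. miR-148a-3p lies on the minus strand at chr6:51269829-51269850 within the predicted gene Gm38821. miR-148b-3p, on the plus strand at chr15:103285185-103285206, and miR-152-3p, on the plus strand at chr11:96850439-96850459, lie within Copz1 and Copz2, a pair of paralogues that encode a subunit of the COPI vesicle coat.

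In conditioned media, 3 of the 7 assays were detected, all of the miR-130 family, compared with 280 of the 750 miRNA assays (37.3%). In blank media, 1 of the 7 was detected, compared with 218 of 750 (29.1%). Detection in conditioned media only was found for miR-130b and miR-301b, or 2 of 7, beside a background of 104 of 750 assays (13.9%). On card A alone, the background was 39.8% with embryos, 32.6% without and 14.7% in conditioned media only. No member was detected in blank media only (5.6% of all assays) or in both media and more than 5 cycles earlier in conditioned media (2.53%). With 7 assays, shares of this size are not read as different from the background. None of the miR-148 family was detected in either medium, a class that held 57.1% of all assays.

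**Figure D1:**
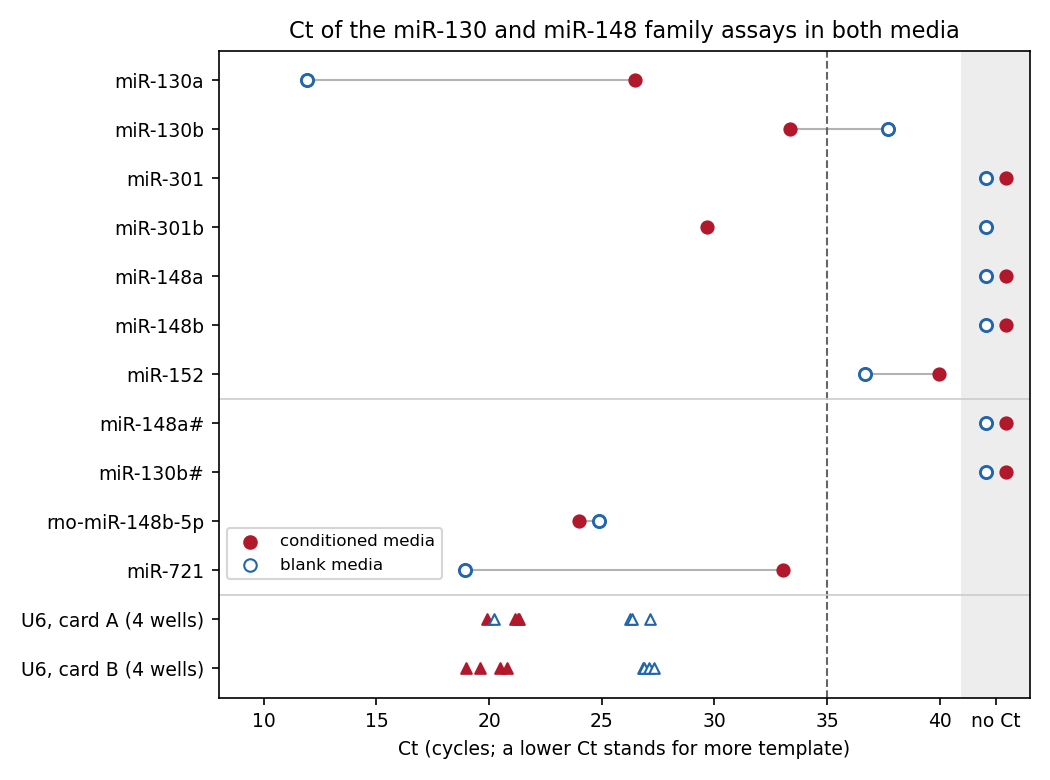
Ct (x axis, cycles) of each member, of other assays of the same hairpins, of miR-721 and of the 4 U6 wells per card, in conditioned media (filled) and blank media (open); the shaded strip holds wells without a Ct and the dashed line is a Ct of 35. miR-130a and miR-721 were earlier in blank media by 14.6 and 14.1 cycles, while miR-301b had a Ct only in conditioned media.

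Error between wells was measured with U6, a small nuclear RNA spotted in 4 wells of each card. On card A, its Ct was 19.9, 21.1, 21.3 and 21.3 in conditioned media (SD 0.68, n = 4 wells) and 20.2, 26.3, 26.3 and 27.1 in blank media (SD 3.22, n = 4 wells). The blank wells thus held 1 that was 6.07 cycles earlier than the next, and without it, a choice made after seeing the data, their SD was 0.49. Between assays of the same name, where both had a Ct below 35 and neither was earlier than the earliest U6 well of conditioned media (18.99), the Ct differed by 1.25 to 7.42 cycles, with a median of 3.40 over 7 pairs of wells. With early wells kept there were 8 pairs with a median of 3.73, and the added pair was by far the widest, since both assays of miR-217 had a Ct in blank media, at 14.7 and 29.4, which are 14.7 cycles apart. Neither spread holds the error between embryos or cultures. No U6 well of either card was later than 27.34, so that the spread of U6 wells does not measure the error of later wells.

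mmu-miR-301b crossed the threshold at cycle 29.7 in conditioned media, and its blank well gave no Ct. It was the only member with a Ct in the presence of embryos and no Ct without them. This was not particular to miR-301b. Of all 750 miRNA assays, 307 had a Ct in conditioned media, 244 in blank media and 392 in neither, so that other assays also had one with embryos only. The height of the fluorescence signal was not analysed here, so that these readings rest on the Ct alone, and a well without a Ct does not show that the miRNA was absent. The latest Ct of any miRNA well of card A in blank media was 39.3, which is 9.64 cycles later than that of miR-301b in conditioned media. By Ct it ranked 113 of the 149 miRNA assays of card A detected there, counted from the lowest.

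mmu-miR-130b, the neighbour of miR-301b in the genome, crossed it at cycle 33.3 with embryos and at cycle 37.7 without. It was therefore also detected below 35 in conditioned media only, but its blank well gave a late Ct, and the 2 media lay on both sides of the limit. The difference, conditioned minus blank, was -4.37 cycles. In size this is larger than the SD of U6 wells of card A in either medium but smaller than the range of the 4 blank U6 wells, 6.95 cycles. Both Ct values of miR-130b were later than those of any U6 well, so that neither figure measures the error of its wells. Relative to the mean of U6 on the same card, which was itself 4.08 cycles earlier in conditioned media, the difference was -0.28 cycles. The median difference of the card A assays detected in both media, here called the card median, was -0.115 cycles. Centred on it, the difference of miR-130b was -4.25 cycles. miR-130b ranked 146 of the 149 assays detected on card A. The minor arm of its hairpin, miR-130b#, was undetermined in both media.

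mmu-miR-130a crossed the threshold at cycle 26.5 with embryos and at cycle 11.9 without. It was therefore earlier in the medium without embryos, by 14.6 cycles. This is larger than the range of the U6 wells in either medium, but it does not exceed the 14.7 cycles between the miR-217 assays within blank media, of which the earlier was, like miR-130a, an early well. Without reference to U6, the difference is therefore not larger than the disagreement seen between a pair of assays of the same name within 1 sample. In conditioned media it ranked 75 of 149 on card A, the middle of the detected assays. In blank media it ranked 19 of 122, and its Ct was 7.08 cycles earlier than that of the earliest U6 well of conditioned media. Relative to mean U6 of the same card, the difference grew to 18.7 cycles. This value includes the 4.08 cycles by which U6 itself differed, so that it is not compared with the unreferenced gap between the miR-217 assays. Centred on the card median, the difference was 14.69 cycles, which did not exceed that gap of 14.72 cycles. Of all miRNA assays, 20 were detected in both media and later with embryos by over 5 cycles (2.67%), by 5.55 to 18.7 cycles, and miR-130a had the eighth largest difference among them. In 19 of these 20, as in miR-130a, the blank well had a Ct earlier than the earliest U6 well of conditioned media. Such early wells numbered 78 of 750 in each medium. With them left out, no comparison of miR-130a between the media remained, and the count of members later by over 5 cycles went from 1 to 0.

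The assay named miR-301, for miR-301a, was undetermined in both media, as were 52.3% of all miRNA assays and 46.8% of those on card A. Within the family, miR-130a and miR-130b, which differ at 2 of 22 bases, lay on opposite sides, with miR-130a earlier in blank media and miR-130b earlier in conditioned media before any reference to U6.

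Of the miR-148 family, mmu-miR-148a and mmu-miR-148b were undetermined in both media. mmu-miR-152 crossed the threshold at cycle 39.99 with embryos, the latest of any miRNA well in either medium, and at 36.7 without. Its difference of 3.29 cycles was smaller than the range of the blank U6 wells of the card, 6.95. Relative to mean U6 it was 7.37 cycles, larger than that range. That reference moves every assay of card A by the same 4.08 cycles, so that nothing is read from the rise. Centred on the card median, the difference was 3.40 cycles. Both Ct values were beyond the limit of detection used, which was true of 5 of all 750 assays (0.667%). The minor arm miR-148a# was also undetermined in both media.

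Among the assays named for hairpins of the miR-148 family, the only one with a Ct below 35 was named for rat, rno-miR-148b-5p, on card B, which read 24.0 with embryos and 24.9 without. The mouse counterpart is shown because it is the opposite arm of the same hairpin as miR-148b-3p and has another seed; it lies on the plus strand at chr15:103285148-103285171.
miR-148b-5p: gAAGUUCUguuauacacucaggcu
The difference for this assay, -0.88 cycles, was larger in size than the SD of U6 wells of card B in either medium, 0.83 and 0.23, and smaller than the range of those wells in conditioned media, 1.82. U6 was 7.07 cycles earlier in conditioned media on that card, so that relative to U6 the sign turned and the assay was 6.19 cycles later. That reference moves every assay of card B alike, so that the turn is not read as a result about this assay. The median difference of the card B assays detected in both media was 0.25 cycles. Whether the rat assay reads the mouse 5p arm is not given in the sources used here, and its level cannot be set against that of the mmu-miR-148b assay.

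**Figure D2:**
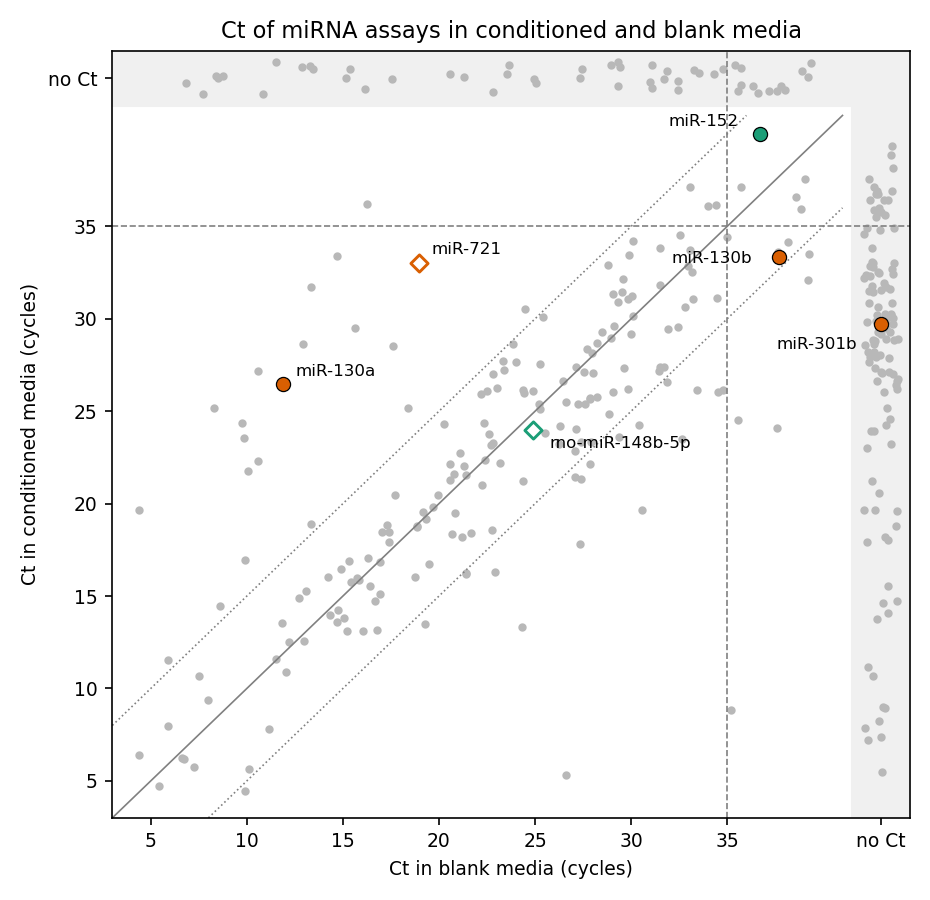
Ct in conditioned media (y axis, cycles) against Ct in blank media (x axis, cycles) for each miRNA assay with a Ct in at least 1 medium; grey strips hold wells without a Ct and their jitter has no meaning, the solid line is equality, dotted lines are differences of 5 cycles and dashed lines a Ct of 35. Orange marks the miR-130 family, green the miR-148 family, and open diamonds miR-721 and rno-miR-148b-5p; miR-130a and miR-721 lie among the 20 assays above the upper dotted line with both Ct values below 35.

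Ordered by Ct in conditioned media, miR-130a at 26.5 was followed by miR-301b at 29.7, miR-130b at 33.3 and miR-152 at 39.99. The gaps between neighbours were 3.21, 3.66 and 6.64 cycles. All 3 gaps were larger than the SD of U6 wells in conditioned media, but lay within the 1.25 to 7.42 cycles seen, early wells aside, between assays of the same name, so that no neighbouring members can be ordered by amount. In blank media the order was miR-130a, miR-152 and miR-130b, with the last 2 beyond 35.

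Sequences that start alike were then examined. The letters AGUGCA within bases 1 to 8 were held by 12 of 1679 mouse mature sequences in RefSeq (0.715%), and by 9 assays of the array whose names could be matched, of which 6 were members. The other 3 were miR-721, miR-350, whose 5p arm holds the letters and whose arm on the array is not stated, and miR-291b-3p; the latter 2 were undetermined in both media. Matching to RefSeq by name succeeded for 429 of the 567 mouse assays without #.

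miR-721, on card B, crossed the threshold at cycle 33.0 with embryos and at cycle 18.9 without. It shares the seed of miR-130a and is 5 single-base edits from it, compared with 10 between miR-130a and miR-301a. The Ct was 14.1 cycles later in conditioned media, the ninth largest of the 20 such differences, next to that of miR-130a, and 21.2 cycles later relative to U6 of card B. Like that of miR-130a, the unreferenced difference does not exceed the gap between the miR-217 assays. The value relative to U6 includes the 7.07 cycles by which U6 itself differed on card B, so that it is not compared with that unreferenced gap. Card A held 15 of the 20 assays and card B 5. The blank Ct of miR-721, 18.94, was only just earlier than the earliest U6 well of conditioned media, 18.99. Among the 9 assays with these letters, miR-130a and miR-721 were the only pair detected in both media, and both were later in conditioned media by more than 5 cycles; they are among 20 such assays of the 176 detected in both media (11.4%). With 2 assays, nothing is read from this about the shared letters. The median of the difference over those 176 was 0.05 cycles.

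A second list held AAGUGC, a core that overlaps AGUGCA by 5 letters, within bases 1 to 8. This core is found in the miR-17, miR-290 and miR-302 families, which are known for promoting the cell cycle of embryonic stem cells. It occurs in 18 of the 1679 sequences (1.07%). Of the assays whose names could be matched, 15 held it, and 2 of these, miR-350 and miR-291b-3p, are also on the first list. Assays not matched by name were not searched, so that the list may be incomplete. miR-292-3p is not on it, and both of its assays, at 19.6 and 23.0 with embryos, were detected in conditioned media only. The shares that follow leave them out. Of the 15, 8 were detected with embryos (53.3%, beside 37.3% of all assays) and 5 without (33.3%, beside 29.1%). Detection in conditioned media only was found for 3 (20%, beside 13.9%), namely miR-291a-3p, miR-294 and miR-295. With 15 assays, these shares are not read as different from the background. Of 5 detected in both media, all had an earlier Ct in conditioned media, with a median difference of -2.10 cycles. Relative to U6 of the card 4 of the 5 were later. That reference moves every assay of card A by the same 4.08 cycles, so that nothing is read from the turn. Without that reference, 1, miR-106a, was earlier by more than 5 cycles, at 13.5 compared with 19.3.

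**Figure D3:**
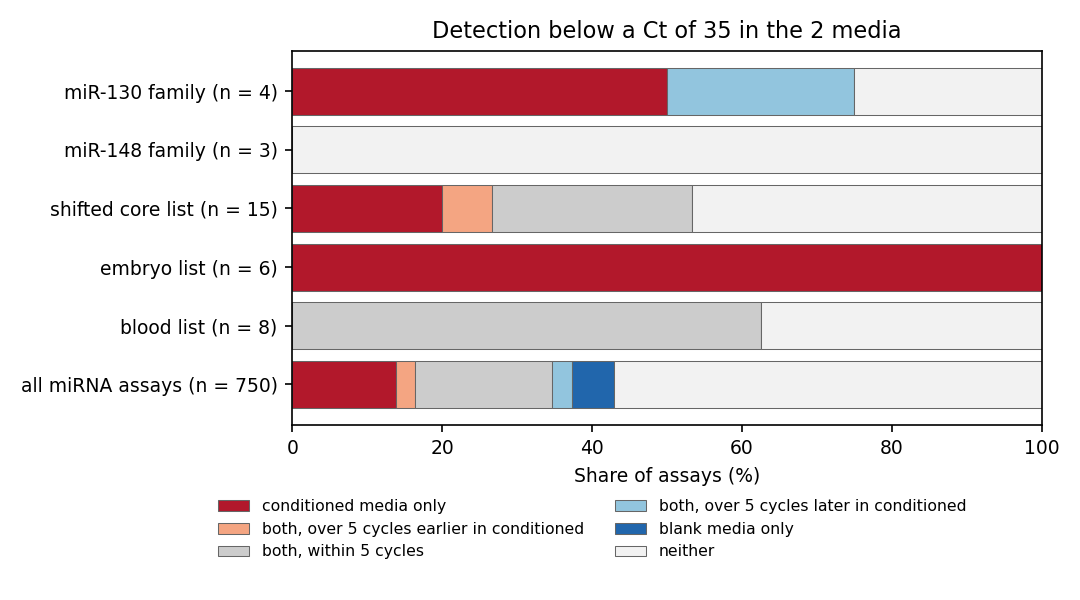
Share of assays (x axis, %) in each class of detection below a Ct of 35, for the miR-130 and miR-148 family members, the shifted core list, the embryo and blood lists and all 750 miRNA assays. The shifted core list is the 15 assays matched by name with AAGUGC in bases 1 to 8, which may be incomplete and does not hold miR-292-3p. Detection in conditioned media only was found for 2 of 4 assays of the miR-130 family, none of 3 of the miR-148 family and 13.9% of all assays; the 6 embryo assays, all in that class, were chosen from this array and are no yardstick for the families.

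The miR-290 cluster markers of the preimplantation embryo (miR-291a-3p, miR-292-3p, miR-293, miR-294 and miR-295, 6 assays) were all detected in conditioned media and none in blank media. The study chose these miRNAs from this same array, so that their detection is not independent evidence for the label and is given as a description. Their Ct in conditioned media was between 19.6 and 26.6, and the 2 assays of miR-292-3p, 1 per card, read 19.6 and 23.0. miR-294 also had a blank Ct, 37.6, beyond the limit. The marker list does not hold every assay of the cluster, and miR-291b-3p, which it leaves out, was undetermined in both media. Of the markers of blood or serum, 7 miRNAs with 8 assays, 5 assays were detected in both media and 3 were undetermined in both. miR-142-3p, miR-150, miR-223 and miR-486 gave the Ct values, with differences from -4.35 cycles, for miR-223 on card B, to 4.38 cycles, for miR-486. The assay of miR-223 on card A had a difference of 1.90 cycles, so that the 2 assays of this name went in opposite directions. miR-451, the most abundant miRNA of red blood cells, miR-144, which is made from the same transcript, and miR-122, the main miRNA of liver, had no Ct. miR-130a, with a difference of 14.6 cycles, lay outside the range of these markers, and their part in its result was not tested.

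Of the other control assays, snoRNA135 and snoRNA202 had a Ct on both cards in conditioned media, on card A of 33.0 and 28.5, and none in blank media. U87 had a Ct of 32.7 on card A in conditioned media and none on card B. The cytoplasmic RNA Y1 read 15.5 on card B in conditioned media and none on card A, and neither control had a Ct in blank media. The cards thus disagreed for both of these assays within the same sample. miR-301b, at 29.7, lay between snoRNA202 and snoRNA135 of the same card. The negative control, miR-159a of a plant, gave no Ct in any well.

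Likeness was measured as the distance in the plane of the 2 Ct values, over 2 samples and 104 other assays with a Ct in both media on card A. The assay nearest to miR-130a was miR-381, 1.52 cycles away, at 27.2 with embryos and 10.6 without. The nearest to miR-130b was miR-331-5p, 0.29 cycles away, at 33.6 and 37.6. The nearest to miR-152 was miR-141, 3.89 cycles away, at 36.6 and 38.6, with its Ct earlier in conditioned media where that of miR-152 was later.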

How the data were processed

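Mature miRNA was profiled in conditioned and blank media, 1 sample each, on both cards of a rodent TaqMan array, after lysis without RNA extraction and 12 cycles of pre-amplification. Per-well Ct values, exported by the authors with the software of the instrument, were deposited with no normalization, and wells lacking a Ct hold the word undetermined. Threshold settings were not given in the sources used here, and those settings move every Ct of an assay. The authors also deposited a table of their own fold changes between the media, which was not used. The height of the fluorescence signal, part of the study's filter, was not analysed here.

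Wells without a Ct were treated as beyond the limit of 35, and differences are conditioned minus blank, with a limit of 5 cycles. Control wells (18 of 768) were left out of counts. Early wells were those with a Ct below the earliest U6 well of conditioned media. Depth has no counterpart here, and the number of wells limits the precision. Members and lists were chosen with earlier results of these data known. Named were every member, other assays of the same hairpins, assays sharing AGUGCA within bases 1 to 8, counts for AAGUGC, neighbouring miRNA genes within 10 kb, the nearest assay to each member, controls and 2 marker lists. Alternatives were Ct limits of 32 and 38 or any Ct, a limit of 3 cycles, other references, early wells left out and other assays of the hairpins added. The classes were checked on simulated data. The work was done in Python 3.11.15 with matplotlib 3.10.9, numpy 2.4.6 and pandas 2.3.3.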

Additional observations from a re-analysis of the deposited data

How the results depend on the processing

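No paired analysis was possible because each condition had 1 sample. The 3 assays detected in conditioned media numbered 2 to 4 under all alternatives. The 2 detected in conditioned media only became 1 at a Ct limit of 32, at 38 and with any determined Ct, where in each case miR-301b was left. The 1 detected in blank media became 3 at a limit of 38 or with any determined Ct, 2 with other assays of the same hairpins added and 0 with early wells left out. The 1 member over 5 cycles later in conditioned media, miR-130a, became 0 with early wells left out; leaving out the assay named miR-301, added after seeing the data, changed no count. The difference for members detected in both media was 14.6 cycles, that of miR-130a alone. It was 3.29 as a median with any determined Ct, 14.69 centred on the card median and 18.7 relative to mean U6. Relative to U6 without its outlying blank well, added after seeing the data, it was 20.3. For miR-130b, the difference of -4.37 became -0.28 relative to mean U6, 0.73 relative to its median and 1.31 without the outlying well. Centred on the card median, it stayed at -4.25. For miR-152, 3.29 became 7.37, 8.38 and 8.96 under the same U6 references and 3.40 centred on the card median. The class of miR-130a rests on its early blank well, and 1 well per medium gives no error for any of these values.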
